A study of Mus musculus with 6 samples.

Results

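Imprinted genes are expressed mainly or only from the copy inherited from one parent. The genes described here come from a list of imprinted genes other than the Igf2-H19 and Dlk1-Meg3 pairs, and a probe set was counted as a member if its platform annotation, with older symbols updated, gave one of these names. Of 39 genes named, 30 were listed with at least 1 probe set, 41 probe sets in all, out of 8251 genes named on the array. Of the 30, 14 are paternally expressed in most mouse tissues in which they are imprinted and 14 maternally expressed. For Grb10 and Gnas the expressed allele depends on the tissue or the transcript. Snrpn, Zrsr1, Zim1, Ppp1r9a, Asb4, Copg2, Htr2a, Slc22a3 and Atp10a were listed with no probe set of their own and are not analysed here.

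Total RNA of exponentially growing mouse embryonic stem cells, which can form every tissue of the embryo, was measured on Affymetrix arrays. A first and a second null line (line 1 and line 2), both triple null for the linker histone genes H1c, H1d and H1e (now H1f2, H1f3 and H1f4), were compared with a wild-type line. Each of the 3 lines was measured on 2 arrays, 1 in experiment 1 and 1 in experiment 2. The labels give neither strain nor clone, and nothing in them tells separate cultures from repeat measurements, so the p-values rest on a spread between arrays that may be technical. Values are signals in intensity units on a linear scale, and an array measures both alleles together, so nothing below says which allele an RNA came from.

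A gene's imprint is a DNA methylation mark set in the egg or the sperm at an imprinting control region. The mark is kept through cell division, and it decides which parental copy of the neighbouring genes is silent. Linker histones sit on the outside of nucleosomes and help to compact chromatin. Several members of the Kcnq1 domain, Ascl2, Tssc4 and Osbpl5 among them, are known to be imprinted in the mouse placenta. Many imprinted genes act on growth of the embryo and placenta or in the brain, and they lie in clusters whose members share a control region. The comparison asks which of these genes differed between the null lines and the wild-type line. With a single wild-type line, the loss of 3 linker histones cannot be told apart from other differences between the lines.

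Promoter windows are shown for Plagl1, Nnat and Phlda2, because they had the 3 smallest p-values of the members in the comparison below. Each is the 300-base window around a RefSeq gene start in build GRCm38.p6, read 5′ to 3′ on the gene's strand, with every CG dinucleotide, the site of DNA methylation, in capitals. They are chr10:13090582-13090881 (plus strand) for Plagl1, chr2:157559828-157560127 (plus strand) for Nnat and chr7:143502475-143502774 (minus strand) for Phlda2.
Plagl1: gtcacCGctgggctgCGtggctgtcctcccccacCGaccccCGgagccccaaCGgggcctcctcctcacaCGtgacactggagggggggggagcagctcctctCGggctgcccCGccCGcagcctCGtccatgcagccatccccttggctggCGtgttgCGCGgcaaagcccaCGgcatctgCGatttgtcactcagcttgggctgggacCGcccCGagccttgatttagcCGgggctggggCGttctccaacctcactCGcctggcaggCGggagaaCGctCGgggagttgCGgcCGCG
Nnat: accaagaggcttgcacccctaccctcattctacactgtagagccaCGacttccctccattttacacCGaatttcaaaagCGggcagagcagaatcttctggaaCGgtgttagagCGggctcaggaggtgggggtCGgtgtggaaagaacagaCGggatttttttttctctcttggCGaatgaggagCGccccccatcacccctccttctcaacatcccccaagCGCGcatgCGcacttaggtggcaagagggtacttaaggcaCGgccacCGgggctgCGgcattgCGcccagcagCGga
Phlda2: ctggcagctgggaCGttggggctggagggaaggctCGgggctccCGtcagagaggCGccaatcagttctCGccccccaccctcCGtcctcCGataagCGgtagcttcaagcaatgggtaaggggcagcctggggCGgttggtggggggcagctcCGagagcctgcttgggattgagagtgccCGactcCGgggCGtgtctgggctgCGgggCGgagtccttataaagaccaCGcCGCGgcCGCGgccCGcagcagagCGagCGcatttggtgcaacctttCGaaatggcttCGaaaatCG
The windows hold 26 CG dinucleotides for Plagl1, 17 for Nnat and 26 for Phlda2. RefSeq windows were matched for 22 of the 30 genes, 33 windows in all, since a gene can have several starts, some of which overlap. Their CG count ran from 1 to 45 with a median of 17, against a median of 7 over all 32851 windows. The letters TGCCGC, which the imprint-keeping protein ZFP57 binds when methylated, were searched on both strands and found in 8 of the 33 member windows (24.2%), among them those of Plagl1 and Nnat, against 11.6% of all windows. The letters TATAAA, searched in the same way, were found in 7 member windows (21.2%), that of Phlda2 among them, against 13.6% of all. TGCCGC itself holds a CG, and the member windows hold more CG than most. Windows of like CG count were not compared, so the TGCCGC share does not show an excess beyond CG content. Several windows with TATAAA are starts of Gnas, some of them overlapping, and overlapping starts of Mest hold TGCCGC. The windows are therefore not independent, and neither share was tested against that of all windows. A match describes these letters only and is not a binding site.

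Median signals of the arrays ran from 34.1 to 39.5 intensity units. Background was taken on each array as the brightest of 19 bacterial and yeast control probe sets, and it ran from 9.1 to 17.2. The targeted H1f2 averaged 12.5 ± 1.51 in the null cells (SD, n = 4) and 69.1 ± 1.27 in wild-type cells (SD, n = 2), while the probe sets of H1f3 and H1f4 did not exceed background on any array and check nothing. The embryonic stem cell markers fixed for this work, among them Pou5f1, Nanog and Sox2, were above background on every array in 9 of 9 cases. They summed to between 8060 and 8901.9 intensity units on the null arrays, against 7776.9 and 7869.4 on the wild-type arrays. Of the 9, 6 had a positive log2 change. The 14 feeder fibroblast markers summed to between 1936.8 and 2292.2 intensity units on the null arrays and 2616.7 and 2679.2 on the wild-type arrays. Of these, 7 were above background on all arrays, while Postn measured between 7.4 and 10.5. The gap came from the contractile genes Acta2 and Tagln: the 12 others, a set chosen after the values were seen, summed to between 719 and 794.7 on the null arrays and to 743.4 and 793.8 on the wild-type arrays, which overlap. The collagens Col1a1 and Col1a2 had log2 changes of 0.01 and 0.12. Among dimmer markers, Twist1 was lower without overlap, at 17 to 20.9 on the null arrays and 24.9 and 28.8 on the wild-type arrays. Col5a2 and Thy1 were higher on every null array than on both wild-type arrays. The 12 extraembryonic endoderm markers summed to between 1236.1 and 1322.6 on the null arrays, against 1687.6 and 1883.6 on the wild-type arrays. Most of that gap came from the matrix genes Sparc, Col4a1 and Col4a2. The 9 others, again chosen after the values were seen, summed to between 321.7 and 452.2 on the null arrays, against 443.7 and 473.1 on the wild-type arrays. The dim markers Gata6, Sox17, Sox7 and Afp overlapped between the groups. Gata4, Lamb1 and Dab2 overlapped too, with log2 changes of -0.23, -0.36 and -0.37. Of the 10 endoderm markers tested, 2 had a positive log2 change, and the median was -0.29. The 7 trophoblast markers with a probe set summed to between 2111.7 and 2456.3 on the null arrays, against 3558.7 and 3706.1 on the wild-type arrays. Most of that sum came from the keratins Krt8 and Krt18, and the defining markers Cdx2 and Elf5 were at or below background on all arrays. Hand1 was above background on every array and lower without overlap, at 82.3 to 96.4 on the null arrays and 107.3 and 129.9 on the wild-type arrays. Eomes and Tfap2c overlapped between the groups, with log2 changes of -0.19 and 0.06. For 7 neuroectoderm markers the sums ran from 978.6 to 1196.2 on the null arrays and were 829.4 and 1055.4 on the wild-type arrays. Null and wild-type arrays overlapped in the neuroectoderm sum. They did not overlap in the stem cell sum, which was higher on the null arrays, or in the full fibroblast, endoderm and trophoblast sums. The part of these sums in the values below was not tested. In bulk RNA, fewer cells of a type and less RNA per cell cannot be told apart.

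In the null cells, Plagl1 had a 2.43-fold lower signal than in wild-type cells, Phlda2 and Nnat had higher signals, and Osbpl5, Peg10, Peg3 and Gnas had lower ones, but no member passed the test across all probe sets. Signals were tested as log2(signal + 2) with limma, with p-values adjusted by the Benjamini-Hochberg method over all 7453 probe sets tested and a threshold of 0.05, and all log2 changes below are on that scale, where dim genes appear to change less than they do. A probe set was tested if its mean over all arrays was at least 20.9, and the brightest probe set of a gene stands for it. Probe sets with the suffix _s_at, _r_at or _f_at were designed under looser rules and can match more than 1 transcript. Of the 30 genes, 24 were tested and all 24 were above background on every array. With limma, 0 of the 24 passed in the average of the null lines against wild type, where 0.416% of all probe sets did. At an unadjusted p under 0.05 there were 2 higher and 5 lower genes of the 24, where 5.68% of all 5654 genes tested were higher and 7.41% lower. All 4 null arrays lay above both wild-type arrays for 2 of the 24 and below both for 7, where 11.7% of all genes lay above and 12.3% below. The adjusted p of the 24 was 0.12 or more. For a single gene, an exact permutation test over 4 and 2 arrays has a smallest two-sided p of 0.0667.

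**Figure D1:**
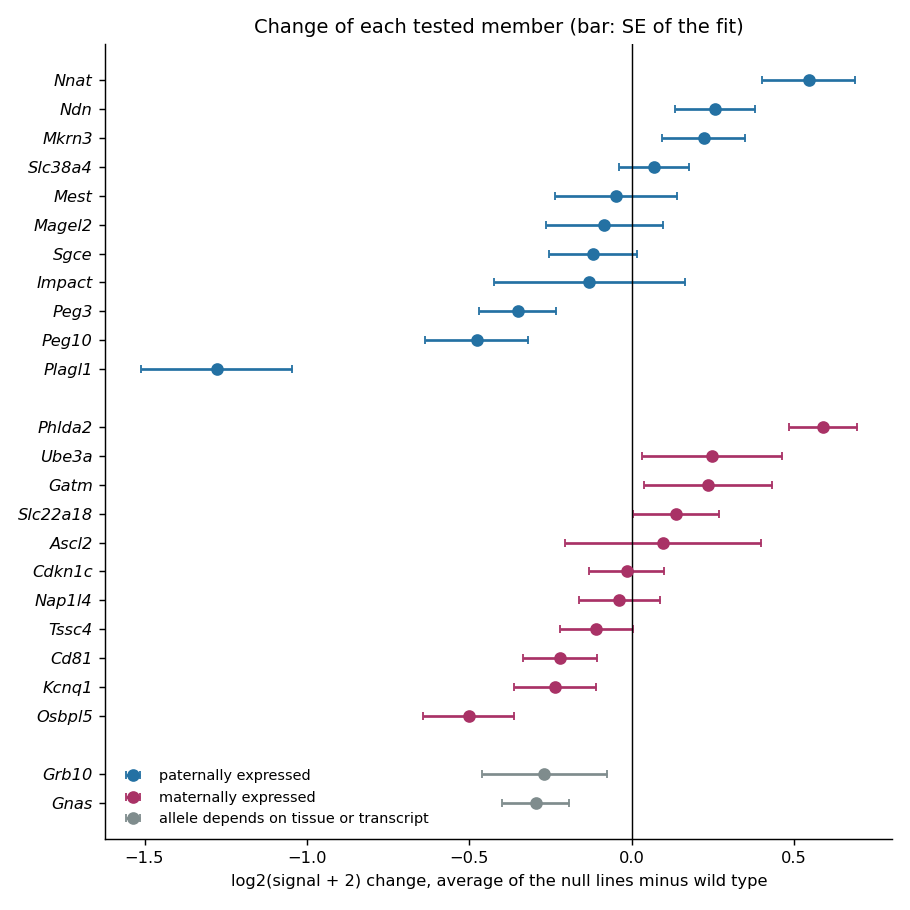
Change of the 24 tested genes in the average of the null lines against wild type. The x axis is the difference in log2(signal + 2), and points are estimates with bars for their SE from the fit. Colours give the parental class known from mouse tissues, which was not measured here. Plagl1 stands at -1.28 and no other gene is beyond -0.5 or 0.59.

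The 11 tested genes classed as paternally expressed had 4 positive and 7 negative changes, with a median of -0.08. The 11 classed as maternally expressed had 5 positive and 6 negative changes, with a median of -0.02. Over all 5654 genes tested the median was -0.01, and 48.4% of changes were positive. The signs were therefore mixed in both parental groups, and the medians lay near that of all genes. The change ran from -1.28 to 0.54 in the paternal group and from -0.5 to 0.59 in the maternal group. Only Plagl1 was at or beyond a 2-fold change (1 of 24, where 0.690% of all genes were), and for 23 of the 24 the 95% interval of the change lay within 2-fold either way.

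Among paternally expressed genes, Plagl1 encodes a zinc finger transcription factor that restrains cell proliferation. Its brighter probe set, 92502_at, measured 21.3 and 35.6 intensity units in line 1 and 17.6 and 23.6 in line 2, against 54.1 and 67.5 in wild-type cells. Every null array was below both wild-type arrays, and the groups did not overlap. The mean signal was 24.5 ± 7.79 in the null cells (SD, n = 4) and 60.8 ± 9.48 in wild-type cells (SD, n = 2). The log2 change was -1.28 ± 0.23 (SE) and did not pass (limma adjusted p = 0.121). The change was -1.08 in line 1 and -1.48 in line 2. Its other probe set, 92501_s_at, measured 27.5 and 7.7 in line 1 and 20.9 and 3.6 in line 2, against 28.4 and 37.8 in wild-type cells. There too every null array lay below both wild-type arrays, but the arrays of experiment 2, at 7.7 and 3.6, were below background while those of experiment 1 were above it. That probe set had a log2 change of -1.33 with an SE of 0.65 (limma adjusted p = 0.458). Within experiment 1 it differed by -0.23 and within experiment 2 by -2.43, whereas the brighter probe set differed by -1.39 and -1.16.

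Nnat encodes neuronatin, a small membrane protein of the endoplasmic reticulum in neural and endocrine cells. Its only probe set, 97520_s_at, measured 295 and 356.2 in line 1 and 407.4 and 329.7 in line 2, against 231.4 and 240 in wild-type cells. All null arrays were above both wild-type arrays. The log2 change was 0.54 ± 0.14 (SE), which is 1.46-fold higher, and it did not pass (limma adjusted p = 0.219).

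Peg10 and Peg3 were lower on average. Peg10 is a gene derived from a retrotransposon and needed for the placenta. Its only probe set, 92269_r_at, measured 270.1 and 200.9 in line 1 and 188 and 194.1 in line 2, against 268.9 and 322.2 in wild-type cells. The groups overlapped, since the line 1 array of experiment 1 was level with the lower wild-type array. Its log2 change was -0.48 ± 0.16 (SE, limma adjusted p = 0.306), -0.33 in line 1 and -0.62 in line 2. Peg3 encodes a large zinc finger protein, known in mouse for effects on growth and maternal behaviour. Its brightest probe set, 96765_at, measured 614.4 and 714.7 in line 1 and 595.7 and 612.9 in line 2, against 839.9 and 776.8 in wild-type cells. These groups did not overlap, and the log2 change was -0.35 ± 0.12 (SE, limma adjusted p = 0.307). The other probe sets of Peg3 overlapped between groups, with log2 changes of -0.42 ± 0.43 for 101451_at and -0.16 ± 0.17 for 161316_f_at (SE, limma adjusted p = 0.729 and 0.759). In 101451_at the arrays split by experiment, with 94.2 and 84.8 on the null arrays and 159.3 on the wild-type array of experiment 1, and 190.5 and 211.6 on the null arrays and 204.9 on the wild-type array of experiment 2.

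**Figure D2:**
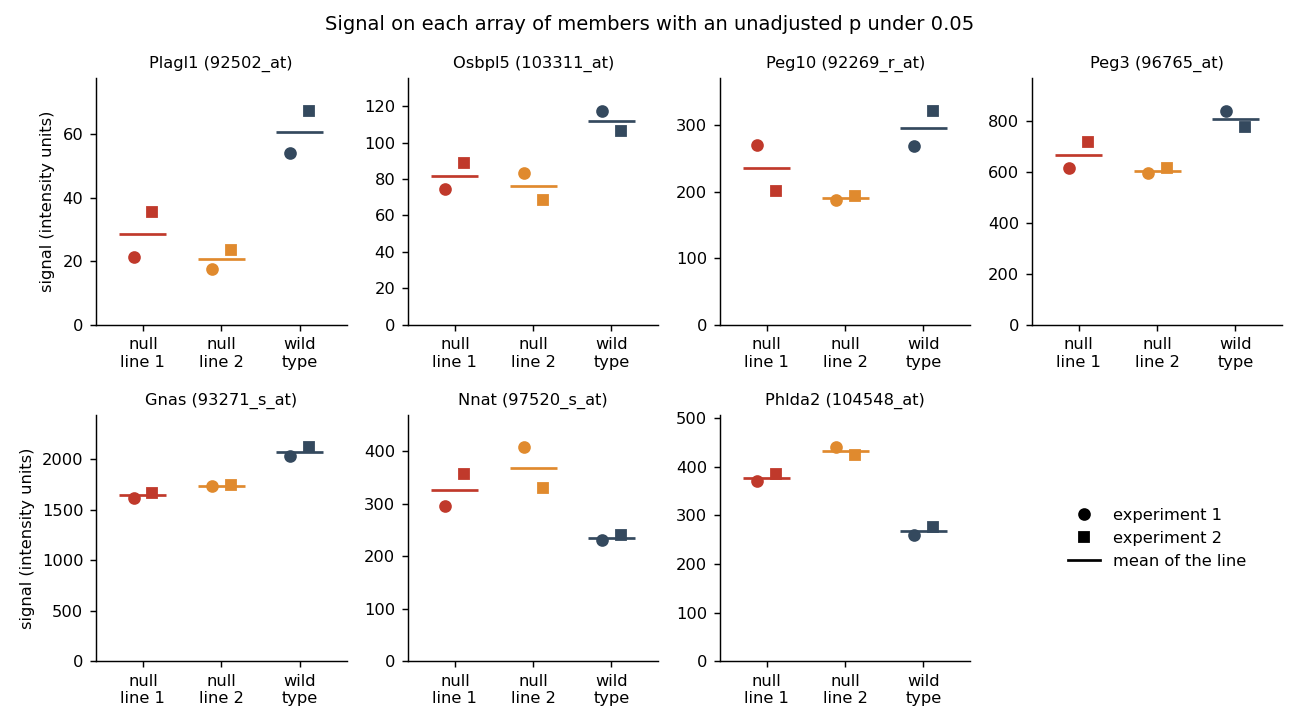
Signal in intensity units on each of the 6 arrays for the 7 tested genes with an unadjusted p under 0.05, each with its probe set and its own axis from 0. Circles are experiment 1, squares experiment 2 and lines the mean of each line's arrays. Null and wild-type arrays overlap for Peg10 alone.

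The remaining 7 paternally expressed genes tested had an unadjusted p above 0.05 each. Ndn, which encodes necdin, a growth-restraining protein of neurons, lies in the Snrpn domain of chromosome 7. Its probe set 94811_s_at measured 84 and 70.9 in line 1 and 104.8 and 102.6 in line 2, against 70.6 and 78.8 in wild-type cells. Both line 2 arrays were above both wild-type arrays, while the line 1 arrays overlapped with them. The log2 change was 0.05 in line 1 and 0.46 in line 2 (limma adjusted p = 0.944 and 0.253), and the second Ndn probe set, 101059_at, gave 0.2 and 0.47. Of its neighbours, Magel2, a partner of ubiquitin ligases, averaged 22.2 ± 2.68 in the null cells and 23.9 ± 5.94 in wild-type cells, and Mkrn3, a RING-finger ubiquitin ligase, 28 ± 2.52 in the null cells and 23.8 ± 3.68 in wild-type cells (SD, n = 4 and 2). Mest, which encodes a hydrolase-like enzyme, averaged 271 ± 50.8 in the null cells and 277 ± 30.8 in wild-type cells, a log2 change of -0.05 with a 95% interval from -0.51 to 0.41. Sgce, the epsilon-sarcoglycan gene next to Peg10, had a log2 change of -0.12 ± 0.14 (SE). Slc38a4, an amino acid transporter, averaged 484 ± 17.6 in the null cells and 461 ± 24.8 in wild-type cells, a log2 change of 0.07 with a 95% interval from -0.19 to 0.33. Impact is an inhibitor of the amino acid sensor kinase GCN2. Its only probe set, 101501_r_at, measured 64.7 and 51.1 in line 1 and 24.1 and 52 in line 2, against 45.6 and 54.2 in wild-type cells. A single line 2 array was low, and the log2 change was -0.13 ± 0.3 (SE).

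Among maternally expressed genes, Phlda2 had the smallest p of all members. It encodes a pleckstrin homology domain protein that restrains growth of the mouse placenta. It measured 370.7 and 384.6 in line 1 and 440.2 and 423.3 in line 2, against 259.4 and 276.7 in wild-type cells. All 4 null arrays were above both wild-type arrays. The mean was 405 ± 32.5 in the null cells (SD, n = 4) and 268 ± 12.2 in wild-type cells (SD, n = 2), a log2 change of 0.59 ± 0.1 (SE), or 1.5-fold higher (limma adjusted p = 0.12). With a spread that follows the signal, an alternative of the same fit, Phlda2 passed (limma adjusted p = 0.0224), with a range from 0.0224 to 0.537 over 14 alternatives. Osbpl5, a lipid transfer protein of the oxysterol-binding family, lies near Phlda2 on chromosome 7 and had lower signals. It measured 74.5 and 88.6 in line 1 and 83.3 and 68.7 in line 2, against 117.6 and 106.4 in wild-type cells, with no overlap. Its log2 change was -0.5 ± 0.14 (SE), or 1.42-fold lower (limma adjusted p = 0.236).

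Both genes belong to the Kcnq1 domain as grouped for this work. The genes so grouped, Ins2 among them, are Ins2, Ascl2, Cd81, Tssc4, Kcnq1, Cdkn1c, Slc22a18, Phlda2, Nap1l4 and Osbpl5. RefSeq (GRCm38.p6) gives this chromosome order and not the grouping. Of the 9 tested, 3 had positive and 6 negative changes, where 48.4% of changes over all genes tested were positive. Several of the 9 changes were smaller than their SE, so the signs do not settle whether the domain's genes share a direction. All 4 null arrays lay above both wild-type arrays for 1 of the 9 and below both for 4. Over all genes tested, 11.7% lay above and 12.3% below. Cdkn1c, the growth-restraining cyclin-dependent kinase inhibitor p57, measured 310.5 and 289.9 in line 1 and 315.2 and 275.4 in line 2, against 304.8 and 296.5 in wild-type cells. Both wild-type arrays lay within the range of the null arrays, and the log2 change was -0.02 with a 95% interval from -0.29 to 0.26. Nap1l4, a histone chaperone of the nucleosome assembly family that lies between Phlda2 and Osbpl5, had a log2 change of -0.04 ± 0.12 (SE).

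Cd81, Tssc4 and Kcnq1 had null arrays below both wild-type arrays, each by a small margin. The tetraspanin gene Cd81 averaged 469 ± 30.2 in the null cells and 546 ± 1.7 in wild-type cells, and Tssc4 averaged 216 ± 12.6 in the null cells and 232 ± 4.67 in wild-type cells (SD, n = 4 and 2). The log2 change was -0.22 ± 0.12 for Cd81 (SE, limma adjusted p = 0.484) and -0.11 ± 0.11 for Tssc4 (adjusted p = 0.739). Kcnq1, a potassium channel gene, was at -0.24 ± 0.13 by its brighter probe set, 161796_r_at (SE, adjusted p = 0.492). Its dimmer probe set, 99322_at, was below the filter, with 4.7 and 2.6 in line 1 and 6.7 and 4.3 in line 2, against 13.1 and 14.4 in wild-type cells. Of the wild-type arrays, 1 was above background there, and no null array was. Slc22a18, a transporter-like membrane protein, was at 0.14 ± 0.13. Ascl2, a transcription factor of the placenta, measured 48.3 and 25.2 in line 1 and 54 and 52 in line 2, against 52.5 and 30.7 in wild-type cells, a log2 change of 0.1 ± 0.3 (SE). Its low values were both in experiment 2.

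**Figure D3:**
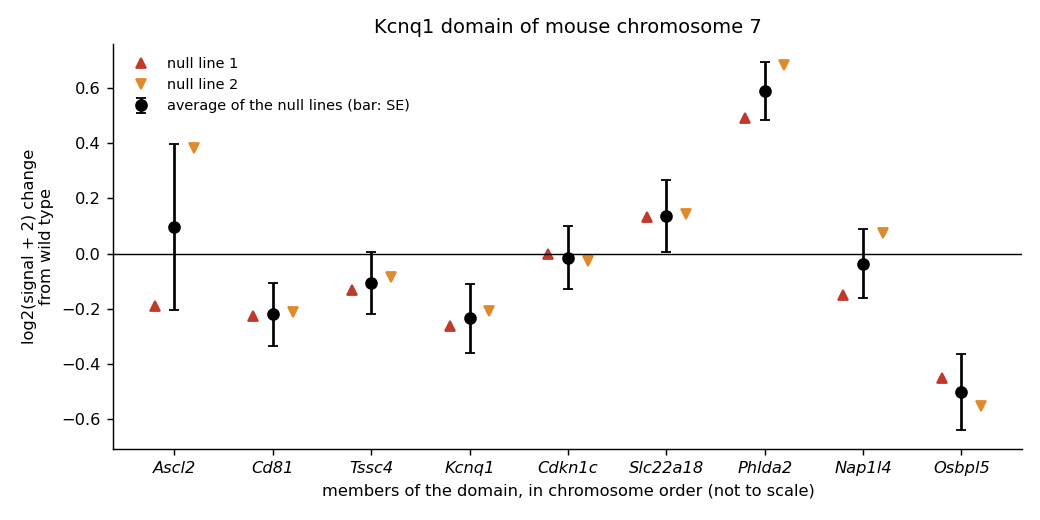
Change from wild type in log2(signal + 2) for the 9 tested members of the Kcnq1 domain, in chromosome order and not to scale. Black points are the average of the null lines with SE bars, and triangles are null line 1 and null line 2, which are set against the same wild-type arrays. Phlda2 at 0.59 and Osbpl5 at -0.5 stand on either side of Nap1l4 at -0.04.

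The other maternally expressed genes with a tested probe set had positive changes smaller than Phlda2. Ube3a, a ubiquitin ligase expressed from the maternal copy in neurons, averaged 55.2 ± 12.2 in the null cells and 45.2 ± 1.13 in wild-type cells (SD, n = 4 and 2), a log2 change of 0.25 ± 0.22 (SE). Gatm, an enzyme of creatine synthesis, averaged 46.2 ± 9.34 in the null cells and 39.2 ± 11.2 in wild-type cells, a log2 change of 0.23 ± 0.2 (SE). In both, null and wild-type arrays overlapped.

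Gnas and Grb10 do not have a single parental class. Gnas encodes the stimulatory G protein alpha subunit and several related transcripts, and the files do not say which transcript a probe set reads. Its bright probe set, 93271_s_at, measured 1619.8 and 1667.6 in line 1 and 1734.4 and 1742.1 in line 2, against 2032.9 and 2118.5 in wild-type cells. The groups did not overlap. The log2 change was -0.3 ± 0.1 (SE), or 1.23-fold lower (limma adjusted p = 0.317). Its other probe sets, 92672_at and 102082_at, were below the filter, at 8.1 to 16.3 and 1.4 to 4.9 on the null arrays and 13.4 to 16.9 and 1.3 to 2.5 on the wild-type arrays. Grb10, an adaptor that restrains signalling from insulin and insulin-like growth factor receptors, was read by 2 tested probe sets, 1 of which separated the groups, and by 95450_at, which was at or below background on all arrays. With 93690_at it measured 118.3 and 100.2 in line 1 and 91.4 and 113 in line 2, against 134.2 and 138.9 in wild-type cells, with no overlap. The log2 change there was -0.37 ± 0.14 (SE), with a limma adjusted p of 0.353. With the slightly brighter 93691_s_at the line 1 array of experiment 1, at 137.5, lay between the wild-type arrays at 139.7 and 135.3, and the log2 change was -0.27 ± 0.19 (SE, adjusted p = 0.61).

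The 6 members below the filter were Usp29, Calcr, Rasgrf1, Ins2, Dcn and Slc22a2. The first 4 of these, a ubiquitin protease, the calcitonin receptor, a Ras exchange factor and an insulin gene, were at or below background on all 6 arrays, so no difference was detectable at this signal. Dcn, which encodes the matrix proteoglycan decorin and is abundant in fibroblasts, measured 20.2 and 14.9 in line 1 and 12.9 and 10.3 in line 2, against 26 and 23.6 in wild-type cells. Every null array was below both wild-type arrays, and 3 of the 4 null arrays were above background. In the fit without the filter its log2 change was -0.73 ± 0.18 (SE, limma adjusted p = 0.393). Among the fibroblast markers, Col1a1 averaged 160 in the null cells and 158 in wild-type cells, and Col1a2 238 in the null cells and 219 in wild-type cells. Of the 7 fibroblast markers tested, these 2 had positive log2 changes. The 3 with an unadjusted limma p under 0.05, Acta2, Tagln and Twist1, were lower, at log2 changes of -0.71, -0.36 and -0.53. Slc22a2, an organic cation transporter of the Igf2r domain, ran from 3.8 to 25.4 on the null arrays and measured 12.1 and 23.5 on the wild-type arrays.

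Within each experiment 2 null arrays stood against 1 wild-type array, and no test was possible. The 7 genes at an unadjusted p under 0.05 kept their sign there, but they were picked from these same arrays. For all of them but Peg10, null and wild-type arrays did not overlap, so the sign within an experiment was fixed in advance. The log2 difference was 0.64 in experiment 1 and 0.54 in experiment 2 for Phlda2, and 0.58 and 0.51 for Nnat. For Osbpl5 it was -0.57 and -0.44, for Peg3 -0.47 and -0.23, for Gnas -0.28 and -0.31 and for Peg10 -0.25 and -0.7. Peg10 differed most between experiments. The counts at an unadjusted p under 0.05 changed when single arrays were left out. Such a fit also has fewer degrees of freedom and leaves a line with a lone array, so a changed count cannot show that a gene rests on 1 array. Over the alternatives the log2 change ran from -1.45 to -0.94 for Plagl1, -0.57 to -0.43 for Osbpl5 and -0.61 to -0.35 for Peg10. It ran from -0.41 to -0.295 for Peg3, -0.33 to -0.27 for Gnas, 0.54 to 0.63 for Phlda2 and 0.47 to 0.62 for Nnat.

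**Figure D4:**
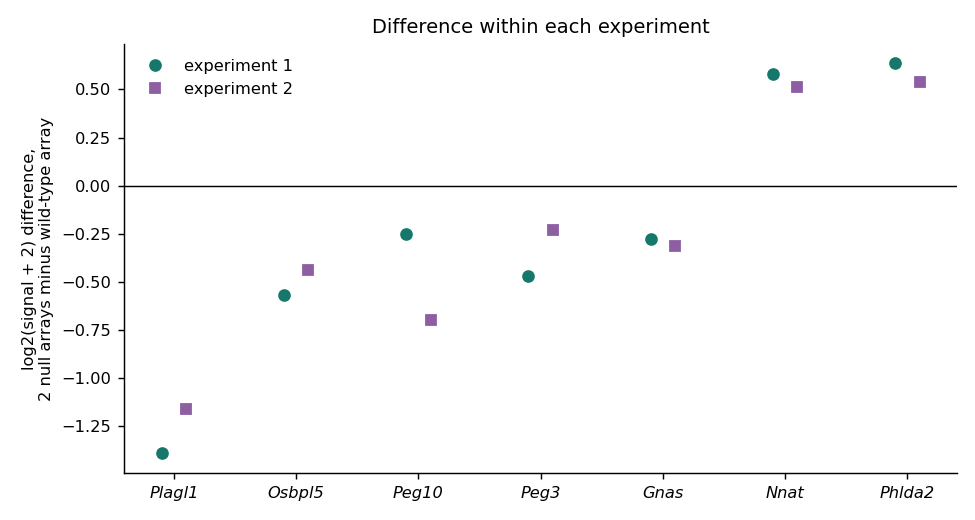
Difference in log2(signal + 2) between the 2 null arrays and the wild-type array of the same experiment, for the 7 genes with an unadjusted p under 0.05. Circles are experiment 1 and squares experiment 2. Each gene has 1 sign in both experiments, which was fixed in advance for all but Peg10, whose null and wild-type arrays overlap. Peg10 has the widest gap among the 7, at -0.25 and -0.7.

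Each null line was also set against the same wild-type arrays. With limma, 0 of the 24 genes passed in line 1 (where 0.134% of all probe sets did) and 0 in line 2 (0.255%). At an unadjusted p under 0.05 there were 5 in line 1, 2 higher and 3 lower, where 9.60% of all genes passed, 4.03% higher and 5.57% lower. In line 2 there were 7, 3 higher and 4 lower, where 14.3% of all genes passed, 6.21% higher and 8.12% lower. The lowest adjusted p was 0.304 in line 1 and 0.113 in line 2, each for Phlda2, whose log2 change was 0.49 and 0.68. Between line 1 and line 2, 0 of 24 passed (0.0268% of all probe sets did) and 1 had an unadjusted p under 0.05, against 7.32% of all genes, 3.89% higher and 3.43% lower in line 1. That gene was Ndn, 0.42 lower in line 1 on the log2 scale (-0.42 ± 0.14, SE, limma adjusted p = 0.627). For 21 of the 24 the 95% interval of the difference between the lines lay within 2-fold either way. The 3 others were Ascl2 (from -1.42 to 0.28), Impact (from -0.16 to 1.49) and Plagl1 (from -0.25 to 1.05).

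Factors that set or keep imprints were listed beside the members, 25 in all, of which 15 had a probe set and all 15 were tested. With limma 0 passed, where 0.416% of all probe sets did. At an unadjusted p under 0.05 there were 2 higher and 0 lower of the 15, where 5.68% of all genes tested were higher and 7.41% lower. The median log2 change was 0.05. Dppa3, which protects the maternal genome from demethylation after fertilisation, measured 434.6 and 311.4 in line 1 and 379.6 and 365.6 in line 2, against 243.5 and 214.2 in wild-type cells. All null arrays were above both wild-type arrays (log2 change 0.69 ± 0.16, SE, limma adjusted p = 0.187). Dnmt3a, a methyltransferase that sets imprints in germ cells, measured 121.3 and 96.4 in line 1 and 164.8 and 139.5 in line 2, against 90.8 and 94.1 in wild-type cells, a log2 change of 0.22 in line 1 and 0.7 in line 2 (0.46 on average, adjusted p = 0.281). The polycomb methyltransferase gene Ezh2 and the insulator protein gene Ctcf were at 0.23 and 0.22 (adjusted p = 0.424 and 0.507).

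Among imprinted genes outside the members, Meg3 measured from 152.8 to 195.9 on the null arrays, against 15.4 and 14.2 on the wild-type arrays, of which 1 was above background, and it passed (limma adjusted p = 0.00119). A probe set whose annotation gives H19 as well as Mir675, and which was therefore assigned to neither, was at 2.87 ± 0.13 on the log2 scale and Igf2 at -1.63 ± 0.12 (SE), and both passed (limma adjusted p = 0.00119 and 0.00788). Dlk1 was at -0.25 and Igf2r, the growth-restraining receptor of the domain that holds Slc22a2, at -0.28 (adjusted p = 0.442 and 0.493).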

How the data were processed

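Gene expression was measured in 6 RNA samples on 1 array type. The deposited values are intensities produced by MAS5 (version not stated), according to the submitters' processing notes. The table has 12488 probe sets, and its trimmed mean, with 2% left out at each end, was about 100.1 on every array, so the authors' scaling was kept. Array number limits the precision. Gene names came from GEO's platform annotation: 10833 have 1 gene, 396 several and 1193 none, besides 66 controls, and older symbols were updated through a RefSeq table (GRCm38.p6). One mean per line was fitted to log2(intensity + 2) with limma 3.58.1 in R 4.3.3 (lmFit, eBayes), with 3 residual and 3.17 prior degrees of freedom. The pseudocount is the rounded 10th percentile of all values, and the filter is the 40th percentile of probe set means. The fit was tested on simulated data. Figures used matplotlib 3.10.9. Alternatives were the normalization, pseudocount, filter, experiment block, spread model, probe set choice, pooling of the null arrays and leaving out each array. Every member was to be named, with values on each array for those with an unadjusted p under 0.05 or a 2-fold change in a null line, and regulators by smallest p. Others given array by array, and the printed promoters, were chosen after their values were seen. The members and lists were chosen with earlier results of these data known.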

Additional observations from a re-analysis of the deposited data

How the results depend on the processing

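Of the alternatives, the spread that follows the signal alone changed a count of members called, to 1 in the null average and 1 in line 2 (Phlda2 in each, limma adjusted p = 0.0224 and 0.0252), and every other setting gave 0 for the members, in each comparison it was run for, and for the regulators. The experiment number of the labels as a block (replicate block) gave 0 members called, with 14 probe sets called over the array against 31. Over the array the other alternatives called from 7 to 101 probe sets, the most with the spread that follows the signal. The differences between experiments correlated across probe sets at r = 0.07 for the null lines and 0.05 and 0.09 for each with wild type, so the arrays were not treated as pairs. Leaving out 1 array, where the line's lone array is assumed to vary like the other lines, gave between 2 and 4 higher and between 2 and 6 lower members at an unadjusted p under 0.05. Some members changed sign without an array. Their ranges were -0.27 to 0.46 for Ascl2, -0.064 to 0.033 for Cdkn1c, -0.046 to 0.51 for Gatm, -0.39 to 0.13 for Impact, -0.32 to 0.15 for Magel2, -0.20 to 0.098 for Mest and -0.12 to 0.041 for Nap1l4. Quantile normalization gave Magel2 0.00098. The median of the paternal group moved to -0.22 without the wild-type array of experiment 1, and that of the maternal group lay between -0.12 and 0.03. The cause was not tested. Signals near background limit Dcn, Slc22a2 and the dimmer Plagl1 and Kcnq1 probe sets. The brighter Plagl1 probe set was dim too, at 17.6 to 35.6 on the null arrays, where background ran from 9.1 to 17.2. It was above background on every array but fell below the stricter filter of 37.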
